A study of Mus musculus with 12 samples.

Results

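The oocyte and maternal-effect genes are a set of 32 genes that the mouse oocyte transcribes while it grows, and whose RNA or protein it hands to the early embryo. They were chosen by name, with earlier results of these data known, and every probe of each was taken from the 12 scanner files. The array named 18327 genes in all, and 31 of the 32 members had a named probe, 35 probes together. Kpna7, an importin of the oocyte, had none. Expression had been measured in single mouse embryos at the morula stage, 1 embryo per array, after 72 h of culture in KSOM medium. The siXist clones (n = 4) and the siCont clones (n = 4) were made from Sertoli cells, the supporting cells of the testis, and were injected with an siRNA against Xist, the noncoding RNA that silences an X chromosome, or with a control siRNA at 6 to 7 h after activation, in the pronuclear stage. The IVF embryos (n = 4) came from in vitro fertilisation and were not treated. All 12 embryos were (C57BL/6 x DBA/2) F1 by strain. The 8 clones and IVF embryos 1 and 3 were male, and IVF embryos 2 and 4 were female. The clones had no counterpart without an injected siRNA, and the IVF embryos had no injected counterpart, so cloning and injection cannot be told apart in a comparison of clones with IVF embryos.

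An oocyte stores RNA in its growth phase, and most of that store is degraded around the first cleavages while the embryonic genome takes over. The zona pellucida genes encode the glycoprotein coat of the egg. The subcortical maternal complex is a protein assembly under the oocyte membrane that persists in cleaving embryos. Mouse embryos from mothers that lack certain of its core parts, though not each of them, stop at early cleavage. The transcription factors Nobox, Figla and Lhx8 drive oocyte genes in the growing follicle, and Figla is known to act through E-box elements of the zona promoters. Low levels of many of these RNAs are usual by the morula stage.

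Promoter windows are shown for 3 of the members described below. They are the coat gene Zp3, Oosp1, the only member that passed the test between classes, and Oog1. They come from RefSeq for GRCm38.p6 and run from 250 bases before to 50 bases after the annotated start, with E-box letters (CANNTG, a motif that reads the same on either strand as a pattern) in capitals. Zp3 lies at chr5:135979855-135980154 on the plus strand, Oosp1 at chr19:11691002-11691301 on the minus strand and Oog1 at chr12:87602415-87602714 on the plus strand.
Zp3: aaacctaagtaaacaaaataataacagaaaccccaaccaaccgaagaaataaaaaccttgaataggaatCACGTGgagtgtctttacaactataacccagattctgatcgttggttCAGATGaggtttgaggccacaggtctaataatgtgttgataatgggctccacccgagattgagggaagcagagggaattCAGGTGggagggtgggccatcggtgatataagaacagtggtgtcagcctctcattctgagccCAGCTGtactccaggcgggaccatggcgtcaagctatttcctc
Oosp1: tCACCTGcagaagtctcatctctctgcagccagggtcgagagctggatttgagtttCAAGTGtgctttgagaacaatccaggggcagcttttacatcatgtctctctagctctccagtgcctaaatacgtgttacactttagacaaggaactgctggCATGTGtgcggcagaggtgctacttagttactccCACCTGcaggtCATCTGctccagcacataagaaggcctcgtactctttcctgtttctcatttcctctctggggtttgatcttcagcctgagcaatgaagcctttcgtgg
Oog1: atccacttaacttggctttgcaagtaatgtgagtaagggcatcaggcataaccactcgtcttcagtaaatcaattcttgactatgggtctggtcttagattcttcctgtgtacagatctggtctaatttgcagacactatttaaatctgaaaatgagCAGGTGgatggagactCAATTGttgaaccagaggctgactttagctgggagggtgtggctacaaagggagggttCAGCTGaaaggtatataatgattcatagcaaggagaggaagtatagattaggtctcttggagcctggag
The Zp3 window held 4 E-box matches, whose first bases lay at -181, -134, -55 and 8 from the start. The Oosp1 window held 5, at -249, -194, -93, -59 and -48. Oog1 had 3, at -93, -77 and -19. Of the 24 members with a window in this table, 20 had at least 1 E-box match in one or more of their 29 windows. By window the share was 82.8%, against 72.3% of all 32851 windows of this length. The homeobox core TAATTG, read on both strands, was present in 2 of the 29 member windows (6.9%) and in 8% of all windows, and TAATTA in 2 (6.9%) against 5.29%. Matches of different motifs may share letters. A match describes letters in a window and not a site in use.

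Values are log2 of the processed intensity minus that of the array's 75th percentile, so 0 is the level of a bright probe and the dimmest signals lie near -8. They are compared between embryos for 1 probe and never between probes. Differences between classes are given ± the standard error of the limma fit. Between 50.8% (siCont clone 3) and 61.4% (siXist clone 3) of 41174 probes per array were well above background by the scanner software's call, and the array's 75th percentile of intensity lay between 507 and 1133. Each class filled its own slide and was scanned by itself, so an effect of slide or scan and an effect of class cannot be told apart. Of 11 morula markers with a probe, 8 were well above background on every array, among them Pou5f1, Cdh1 and Krt8. Sox2 was so on 1 of 4 siXist, 1 of 4 siCont and 4 of 4 IVF arrays, Cdx2 on 4, 3 and 4 and Sall4 on 3, 4 and 4. Class means in that order were -7.04, -5.41 and -0.16 for Sox2, 2.85, -1.05 and 4.72 for Cdx2 and 4.16, 4.48 and 4.84 for Sall4. In such RNA from whole embryos, fewer cells with a transcript and less RNA per cell cannot be told apart. Replicates were separate embryos, and their number limits the precision of every value.

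Most oocyte transcripts were still measurable at the morula stage. Of the 31 members with a probe, 18 were well above background on all 12 arrays and 27 on at least 6. By embryo, siXist clones 1 to 4 had 26, 30, 29 and 27 of the 31 above background, siCont clones had 27, 25, 22 and 25, and IVF embryos had 27, 26, 27 and 24. The lowest count was that of siCont clone 3, which also had the lowest share of all probes above background. The filter for testing (at least 3 of 4 arrays of any class above background) kept 29 members. Zbed3 and Mos did not pass it. Nobox and Gpr3 passed through the siXist class alone, so a higher level in that class was in part set by the filter. Across the 29 tested members, the median deviation from the gene's own mean was 0.52, 0.0026, -0.38 and -0.04 in siXist clones, 0.40, 0.36, 0.05 and 0.38 in siCont clones, and -0.48, -0.37, -0.33 and -0.07 in IVF embryos. All 4 siCont clones lay above all 4 IVF embryos by this measure, and siXist clones spread over most of the range. The same median over all genes tested lay between -0.43 and 0.11 in siXist clones, -0.02 and 0.26 in siCont clones, and 0.06 and 0.15 in IVF embryos. In siCont clone 3 the members' median (0.05) was below that of all genes (0.24), as in every IVF embryo (-0.07 against 0.09 in embryo 4). The other siCont clones were above theirs. The separation of siCont clones from IVF embryos therefore does not hold for siCont clone 3 once each embryo is read against all genes.

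**Figure D1:**
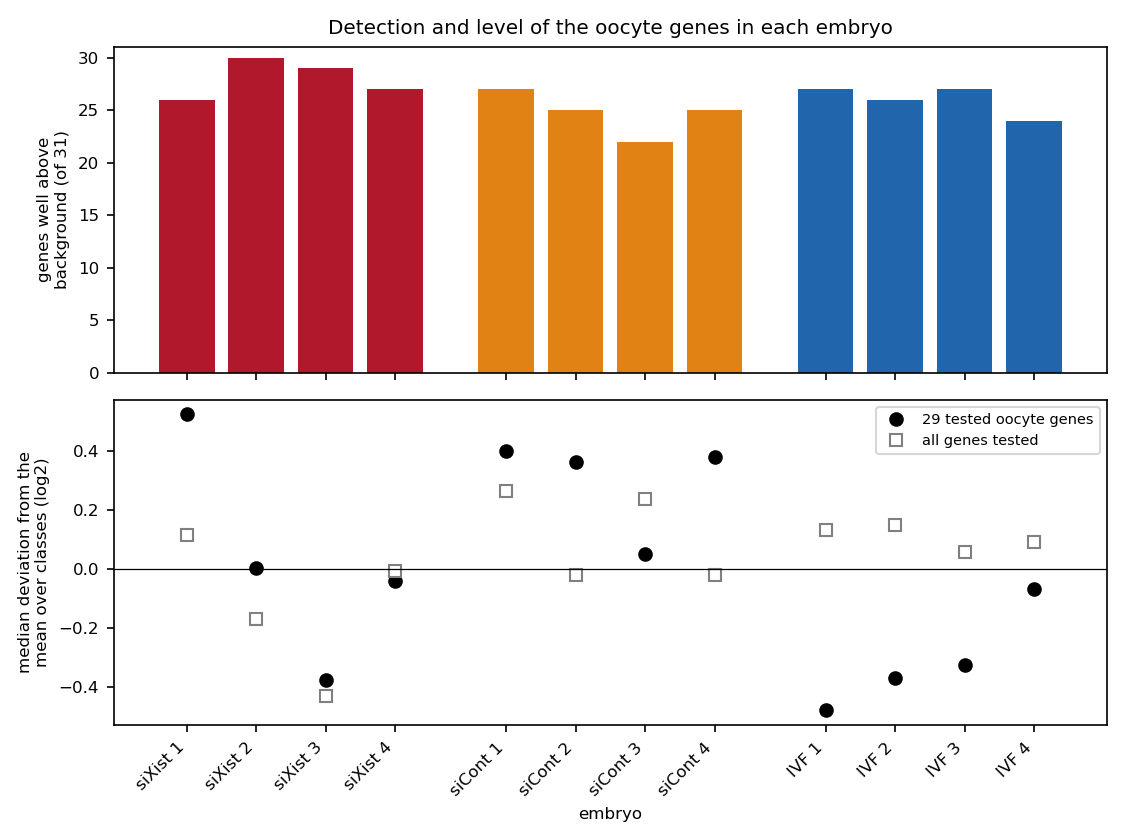
Bars give the number of oocyte genes (of 31 with a probe) well above background in each of the 12 embryos, and points give the median deviation in log2 from each gene's mean over the classes, for the 29 tested oocyte genes (black) and for all genes tested (grey squares). Counts run from 22 in siCont clone 3 to 30 in siXist clone 2, and the black points of siCont clones (0.05 to 0.40) lie above those of IVF embryos (-0.48 to -0.07). In siCont clone 3 and in the IVF embryos the black point lies below the grey square.

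The zona pellucida genes encode the filaments of the coat (Zp2 and Zp3) and their cross-linker (Zp1), and Astl encodes ovastacin, the protease that cleaves the Zp2 protein after fertilisation. Zp1 was at -5.10, -4.56, -5.46 and -4.55 in siXist clones, -4.13, -4.13, -3.85 and -4.88 in siCont clones and -5.56, -5.04, -5.24 and -3.55 in IVF embryos. It was above background on all arrays and close to the dim end in each class. Zp2, on the brighter of its probes, was at -1.79, -5.50, -1.996 and -3.61 in siXist clones, -1.29, -1.07, -1.61 and -1.93 in siCont clones and -3.39, -4.20, -3.59 and -2.02 in IVF embryos. Every siCont clone was above every IVF embryo, by a mean difference of 1.82 ± 0.80 (adjusted p = 0.355), and siXist clones 2, 3 and 4 were lower than all siCont clones. The siXist minus siCont difference of Zp2 was -1.75 ± 0.80 (adjusted p = 0.366), and it was -0.99 without siXist clone 2 and -0.61 in the authors' deposited table. On the other Zp2 probe the siCont minus IVF difference was only 0.71 (adjusted p = 0.749 in the fit of every probe) and the classes overlapped, while siXist minus siCont was -2.07 (adjusted p = 0.348). Zp3, whose probes gave differences of the same sign in each comparison, was on the brighter at -0.58, -0.05, -0.86 and 0.98 in siXist clones, 0.01, 0.31, 0.76 and 0.69 in siCont clones and -0.95, -1.18, -0.08 and 0.30 in IVF embryos. Its siCont clones were the tightest class, with an SD of 0.35 against 0.81 in siXist clones and 0.70 in IVF embryos, and the classes overlapped. Astl was at -5.91, -5.96, -5.28 and -6.99 in siXist clones, -3.34, -5.89, -6.49 and -5.00 in siCont clones and -2.24, -6.17, -5.81 and -5.44 in IVF embryos. IVF embryo 1 was the highest, and 3 of 4 siXist, 3 of 4 siCont and 2 of 4 IVF arrays were above background. The siXist minus IVF difference of Astl was -1.12 ± 0.86 (adjusted p = 0.572).

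Transcripts of the 4 core subunits of the subcortical maternal complex were above background in all 12 embryos. Khdc3 (Filia) was bright on every array, at 8.09, 7.24, 7.15 and 7.60 in siXist clones, 7.96, 6.02, 7.61 and 6.98 in siCont clones and 7.98, 8.39, 7.83 and 7.92 in IVF embryos. IVF embryos formed a narrow band, and siCont clone 2 was the lowest embryo. Ooep (Floped), another core subunit, was at 1.31, 0.10, -0.31 and 1.00 in siXist clones, 0.74, 0.09, 0.81 and -1.82 in siCont clones and 1.31, 1.40, 0.81 and -0.72 in IVF embryos. The classes overlapped, and siCont clone 4 and IVF embryo 4 were the lowest of their classes. Nlrp5 (Mater) was at -2.31, -3.95, -4.73 and -2.65 in siXist clones, -4.49, -2.37, -5.21 and -4.35 in siCont clones and -5.81, -4.18, -2.28 and -2.79 in IVF embryos. It varied by over 3 log2 units among IVF embryos alone, and no class stood apart. Tle6, the fourth core subunit, was at -0.27, -0.10, -0.90 and -0.74 in siXist clones, -0.66, 0.40, -0.43 and 0.53 in siCont clones and -1.49, -1.83, -1.17 and -1.11 in IVF embryos. All 8 clones were above all 4 IVF embryos. The difference was 1.36 ± 0.38 (adjusted p = 0.177) for siCont minus IVF, 2.56-fold, and 0.89 ± 0.38 (adjusted p = 0.326) for siXist minus IVF, and neither passed. These comparisons share the IVF arrays. Padi6, which is needed for the cytoplasmic lattices of the oocyte, was at 1.19, 0.77, -0.59 and -0.50 in siXist clones, 0.59, 0.38, 1.59 and 1.74 in siCont clones and 0.70, 0.66, 0.39 and 2.26 in IVF embryos. Zbed3, a partner of the complex, was above background on 1 array, siXist clone 4 at -6.35, and lay between -8.61 and -6.98 on the others. Among the 5 tested genes of the complex the siXist minus siCont differences ran from -0.85 to 0.70, with a median of 0.38 against -0.21 over all genes, and no member was called.

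Nlrp2, Nlrp4f and Nlrp14 belong to the same NLR family as Nlrp5, and maternal Nlrp2 and Nlrp14 are needed for early development in mice. Nlrp2 was at -2.85, -3.37, -3.09 and -3.31 in siXist clones, -2.79, -2.81, -2.36 and -0.68 in siCont clones and -3.19, -3.13, -3.23 and -1.76 in IVF embryos. The siXist clones lay below all siCont clones by a narrow gap, with a difference of -0.997 ± 0.51 (adjusted p = 0.403). Nlrp14 was at 1.49, 1.88 and 1.71 in siXist clones 2 to 4 (the spot of clone 1 was an outlier and left out), 1.95, 3.20, 2.07 and 3.63 in siCont clones and 1.89, 2.51, 2.06 and 2.54 in IVF embryos. The 3 siXist values were below every siCont and every IVF value, by a narrow gap. The difference was -1.02 ± 0.45 (adjusted p = 0.362) for siXist minus siCont, and for siXist minus IVF it was -0.55 ± 0.45 (adjusted p = 0.6). The first turned to 0.19 in the authors' deposited table. Nlrp4f was the most variable member, at -2.36, -0.33, -5.33 and -2.20 in siXist clones, -1.54, -8.44, -0.40 and -8.26 in siCont clones and -4.40, 0.06, 2.33 and -4.67 in IVF embryos. The siCont clones split into a bright and a dim pair, with clones 2 and 4 not above background. Its difference was 2.11 ± 2.27 (adjusted p = 0.675) for siXist minus siCont, below its standard error. For siCont minus IVF it was -2.99 ± 2.27 (adjusted p = 0.596), larger than its standard error in size. The SD within classes was 2.07 in siXist clones, 4.29 in siCont clones and 3.44 in IVF embryos. Of the 4 Nlrp genes, Nlrp5 included, 2 were above 0 and 2 below 0 in siXist minus siCont, and no member was called in any comparison.

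The oocyte transcription factors were the least even group. Lhx8, a LIM homeobox factor, was at -5.14, -4.78, -2.62 and -8.93 in siXist clones, -8.36, -7.71, 0.50 and -8.28 in siCont clones and -0.56, -0.41, 1.56 and -1.49 in IVF embryos on the brighter of its probes. It was above background on 3 of 4 siXist, 1 of 4 siCont and 4 of 4 IVF arrays. All IVF embryos were above all siXist clones, with a siXist minus IVF difference of -5.15 ± 2.00 (adjusted p = 0.296). The siCont minus IVF difference was -5.74 ± 2.00 (adjusted p = 0.267), but siCont clone 3, at 0.50, was as bright as IVF embryos and the other siCont clones were not above background, so its size is uncertain. It was -4.58 with a floor under dim signals, -2.67 with normexp and quantile scaling and -7.89 without siCont clone 3. For siXist minus IVF the floor gave -4.56 and normexp and quantile scaling gave -3.16. The other probe of Lhx8 was above background on 0 of 4 siXist, 1 of 4 siCont and 3 of 4 IVF arrays, with differences of -4.98 for siXist minus IVF and -2.48 for siCont minus IVF (adjusted p = 0.128 and 0.42 in the fit of every probe). Figla, the basic helix-loop-helix factor of the zona genes, was at -3.56, -0.94, -1.22 and -3.36 in siXist clones, -1.47, -8.35, -7.73 and -2.13 in siCont clones and -4.37, -3.08, -4.34 and -7.65 in IVF embryos. It was above background on 4 of 4 siXist, 2 of 4 siCont and 3 of 4 IVF arrays, and the classes overlapped. The differences were 2.65 ± 1.68 (adjusted p = 0.482) for siXist minus siCont and 2.59 ± 1.68 (adjusted p = 0.514) for siXist minus IVF. Nobox, a homeobox factor, was above background in siXist clones 2, 3 and 4 (-2.30, 0.27 and -4.63) and in siCont clone 2 (-0.90). It was not well above background in siXist clone 1 (-8.38), in the other siCont clones or in any IVF embryo (-8.21 to -7.64). No IVF array measured it, so the fitted siXist minus IVF difference of 4.14 ± 2.00 (adjusted p = 0.393) rests on IVF signals not above background. Set against the limits of the IVF arrays themselves, the mean of siXist clones was 12.1-fold higher, a fold that was not tested. That mean includes siXist clone 1, in which Nobox was not above background, so the fold is not a strict lower bound. Nobox also entered the test through siXist clones alone. The fold depends on the limit used, and with 1 floor for all arrays the difference was 3.27 in log2. Over 21 alternatives the difference ran from 1.57 to 5.68. The siCont clones gave a higher mean than IVF embryos through clone 2 alone (adjusted p = 0.757), and without it the difference was -0.15. The fold of siXist clones is taken against the lowest signal well above background on each IVF array, or the probe's own signal where that is higher. Between siXist and siCont clones the difference of Nobox was 2.503 ± 2.00 (adjusted p = 0.57). The 3 factors differed in which embryos held their signal. Lhx8, on its brighter probe, was brightest in IVF embryos and siCont clone 3, and Nobox in siXist clone 3 and siCont clone 2. On the other Lhx8 probe the brightest siCont clone was clone 2, at -2.93, with siCont clone 3 at -5.69. Which siCont clone held the Lhx8 signal thus depended on the probe.

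Zona glycoprotein genes and transcription factors thus differed in detection on the brightest probe of each. The 3 zona glycoprotein genes were above background on all 12 arrays each, while none of the 3 factors was, with 9 (Figla), 8 (Lhx8) and 4 (Nobox) arrays. Astl, the protease of the zona group, was above background on 8 arrays, as many as Lhx8. The other Zp2 probe was so on 11 arrays and the other Lhx8 probe on 4. These counts come from different probes. In siXist minus siCont, the 4 zona genes, Astl included, had differences from -1.75 to -0.57 (adjusted p from 0.366 to 0.650). On the brightest probe of each, the 3 factors had differences from 0.60 to 2.65 (adjusted p from 0.482 to 0.905). The 0.60 was that of Lhx8, whose other probe gave -2.50 (adjusted p = 0.404 in the fit of every probe), so the factors shared no direction over all probes. Nobox passed the filter through siXist clones alone, which in part set its direction. No difference between these groups was tested, since the members are not replicates.

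**Figure D2:**
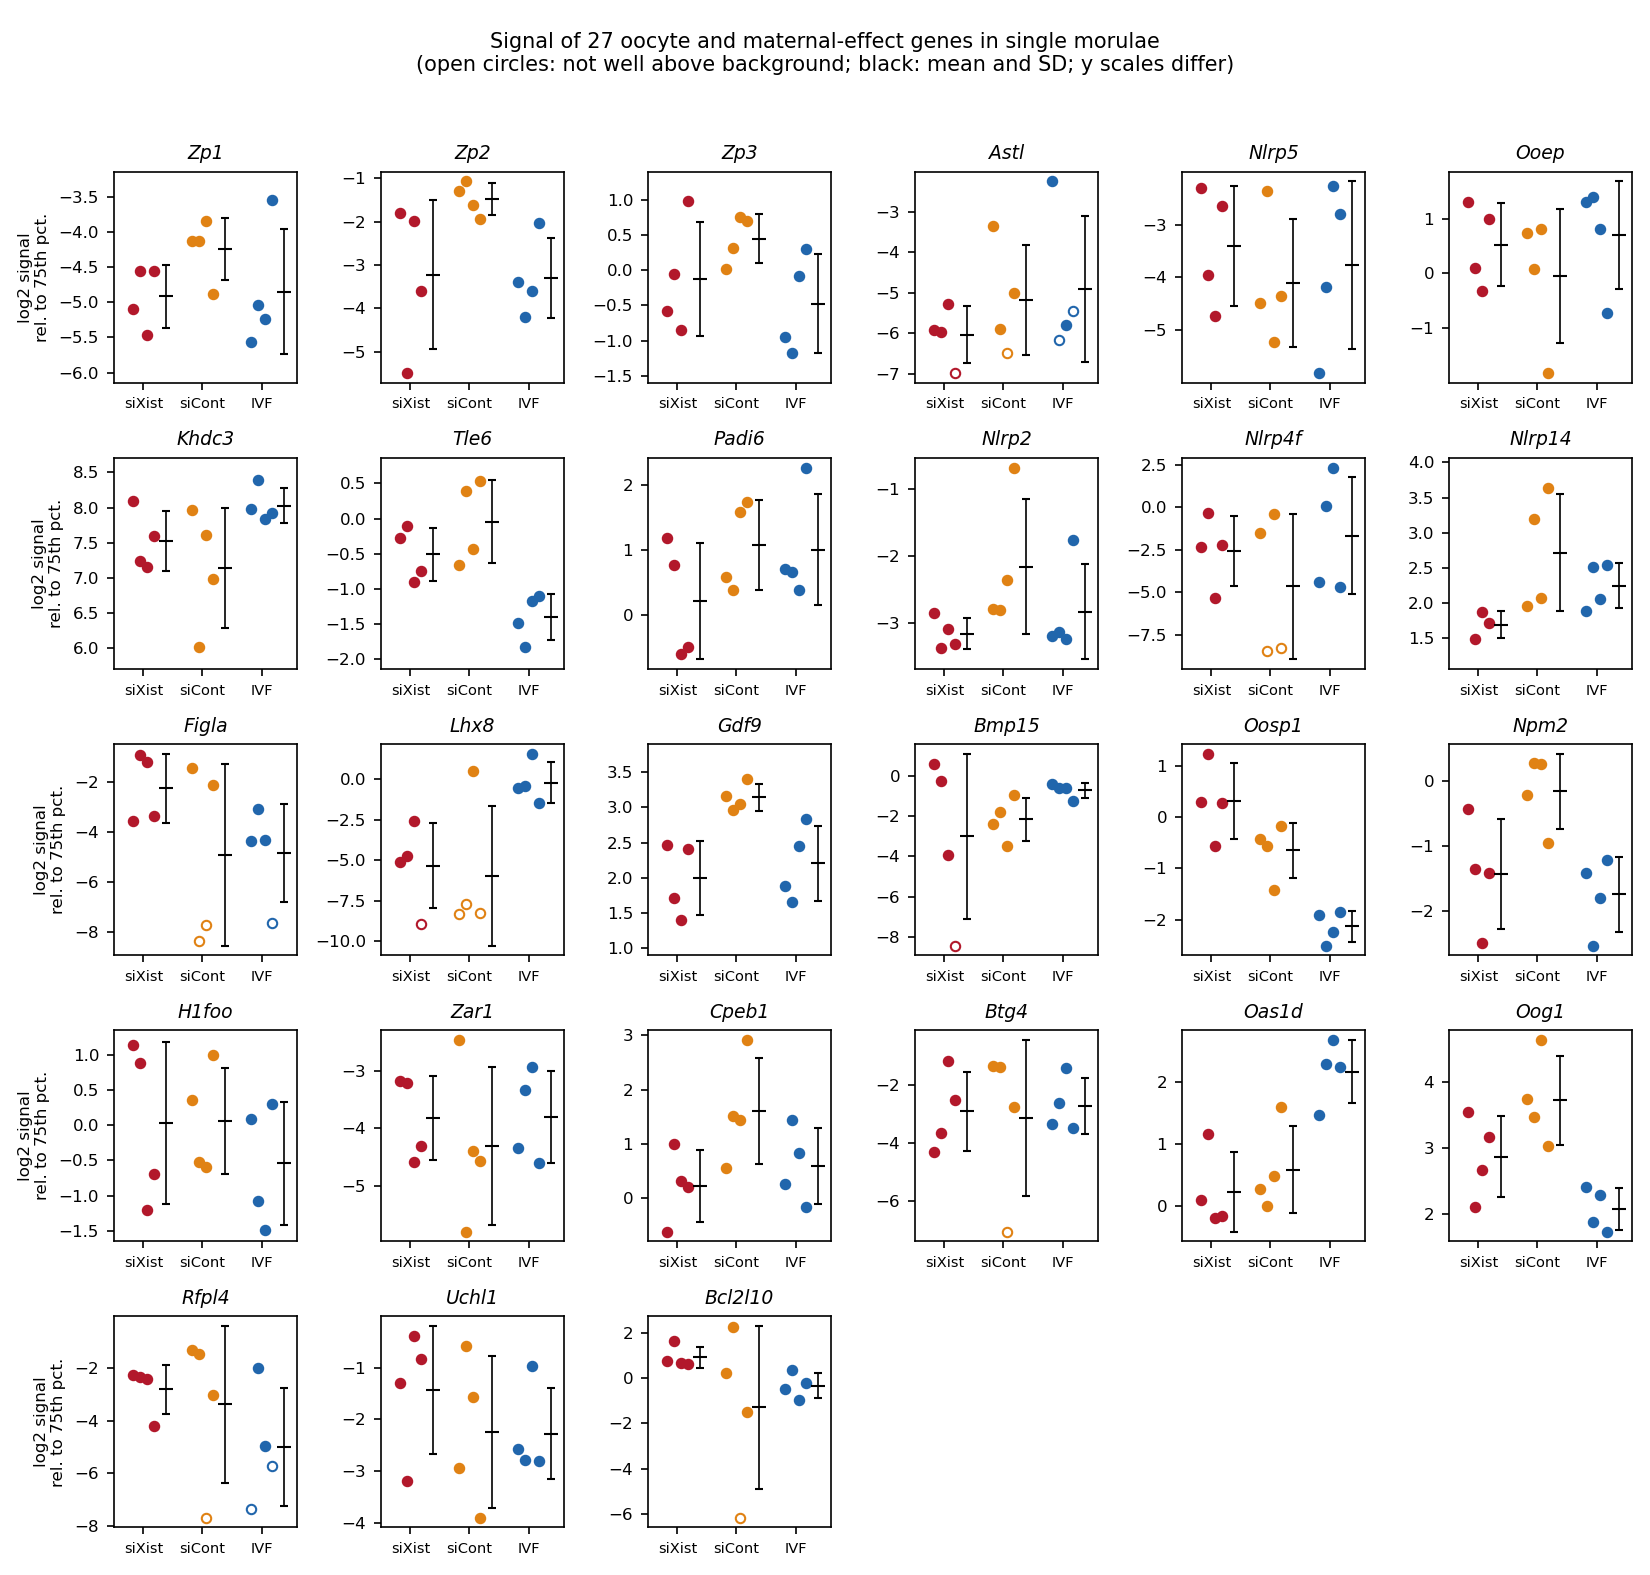
Each panel shows 1 of 27 genes in the 12 embryos as log2 signal relative to the array's 75th percentile, with siXist clones (red), siCont clones (orange) and IVF embryos (blue), and with the class mean and SD in black. Open circles are embryos in which the probe was not well above background. Oosp1 is higher and Oas1d lower in clones than in IVF embryos, apart from siCont clone 4 for Oas1d, while Nlrp4f, Figla and Lhx8 split within a class.

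The factors that oocytes secrete, and the signals that hold and release meiosis, gave the single call. Oosp1, an oocyte-secreted protein, was at 0.30, 1.23, -0.56 and 0.27 in siXist clones, -0.42, -0.57, -1.41 and -0.18 in siCont clones and -1.91, -2.50, -2.23 and -1.85 in IVF embryos. All siXist and all siCont clones were above all IVF embryos, and siXist clones 1, 2 and 4 were above every siCont clone. The means were 0.31 ± 0.73 in siXist clones, -0.64 ± 0.54 in siCont clones and -2.12 ± 0.30 in IVF embryos (SD, n = 4 each). Oosp1 rose in siXist clones by 2.43 ± 0.43 (adjusted p = 0.0444), 5.39-fold, over IVF embryos, in limma with Benjamini-Hochberg adjustment over 19047 genes. The siCont minus IVF difference was 1.48 ± 0.43 (adjusted p = 0.204), 2.78-fold, and did not pass. Between siXist and siCont clones it was 0.95 ± 0.43 (adjusted p = 0.364). A second Oosp1 probe was at 0.08, -0.69 and 0.29 in siXist clones 1, 3 and 4 (clone 2 was an outlier spot), -0.37, -0.63, -1.51 and -0.20 in siCont clones and -1.96, -2.49, -2.31 and -1.99 in IVF embryos. On that probe siXist minus IVF was 2.08 with an adjusted p of 0.0912 in the fit of every probe and with siXist clone 2 missing, while the mean of both probes kept the call (adjusted p = 0.0435). The call was kept in 7 of 22 alternatives and lost in 15, with adjusted p from 0.0364 to 0.279 and a difference that stayed between 1.93 and 2.72. Leaving out any 1 siXist clone ended it (adjusted p = 0.0808, 0.0911, 0.0504 and 0.0859 without clones 1 to 4), as did any 1 IVF embryo (0.133, 0.12, 0.148 and 0.0789 without embryos 1 to 4). Leaving out siCont clones 1, 2 or 4 ended it too (0.0605, 0.0695 and 0.0601), as did the deposited table (0.279), the stricter filter (0.0614), a fit of the compared classes alone (0.0816) and the replicate block (0.0900).

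**Figure D3:**
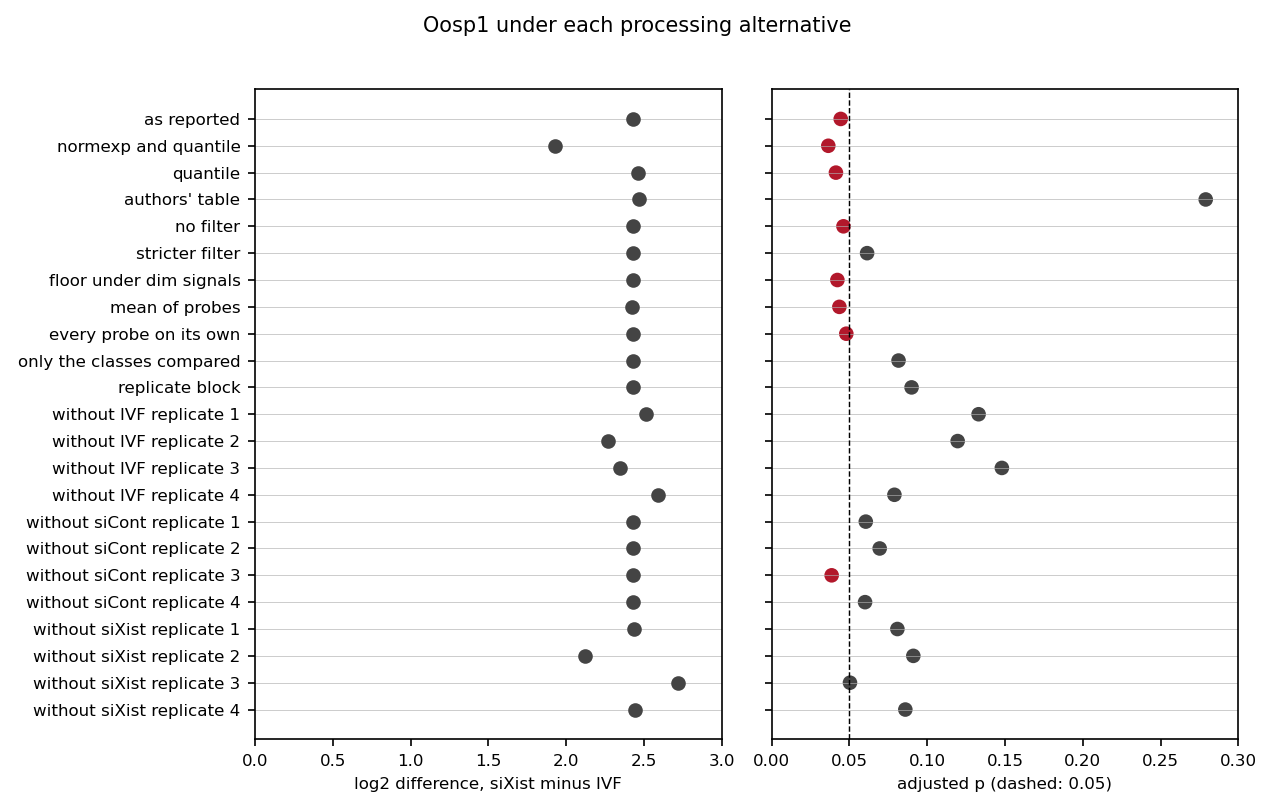
For Oosp1, the left panel gives the siXist minus IVF difference in log2 and the right panel its adjusted p in limma, as reported and under each of 22 alternatives. The difference stays between 1.93 and 2.72, while the adjusted p crosses the dashed threshold of 0.05 and reaches 0.279 in the authors' deposited table.

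Gdf9, a growth factor that signals to the cumulus cells, was at 2.47, 1.71, 1.40 and 2.41 in siXist clones, 3.17, 2.96, 3.05 and 3.40 in siCont clones and 1.88, 1.66, 2.45 and 2.83 in IVF embryos. The 4 siCont clones formed a narrow band above every siXist clone and every IVF embryo. The differences of -1.15 ± 0.37 (adjusted p = 0.296) for siXist minus siCont and 0.94 ± 0.37 (adjusted p = 0.314) for siCont minus IVF did not pass. Bmp15, its X-linked relative and partner, was at 0.55, -0.26, -3.92 and -8.43 in siXist clones, -2.43, -1.80, -3.50 and -0.98 in siCont clones and -0.43, -0.60, -0.61 and -1.27 in IVF embryos. The IVF embryos lay within a narrow range, with males at -0.43 and -0.61 and females at -0.60 and -1.27. The siXist clones spanned almost 9 log2 units, and clone 4 was not above background. Bmp15 differences were -2.29 ± 1.66 (adjusted p = 0.55) for siXist minus IVF and -1.45 ± 1.66 (adjusted p = 0.737) for siCont minus IVF. Without siXist clone 4 the first was -0.48. Gpr3, the receptor that keeps the oocyte in meiotic arrest, was at -6.77, -6.03, -6.09 and -6.23 in siXist clones, -5.08, -8.43, -7.79 and -8.15 in siCont clones and -8.29, -8.20, -8.58 and -7.87 in IVF embryos. It was above background on 3 of 4 siXist, 1 of 4 siCont and 0 of 4 IVF arrays. The fitted siXist minus IVF difference was 1.95 ± 0.66 (adjusted p = 0.235), with no IVF signal above background. Against the detection limits of the IVF arrays themselves the siXist mean was 2.29-fold higher, a fold that was not tested. That mean includes siXist clone 1, in which Gpr3 was not above background, so this fold is not a strict lower bound either. It also depends on the limit used. With 1 floor for all arrays the difference was 0.34 in log2, and it was 0.29 with normexp and quantile scaling. Above the siCont clones the siXist mean lay by 1.08 ± 0.66 (adjusted p = 0.465). Without siCont clone 1 the siXist minus IVF difference of Gpr3 had an adjusted p of 0.0345, for a gene that entered the test through its level in siXist clones and that no IVF array measured, so nothing is read from it. With a floor under dim signals its siXist minus siCont difference turned to -0.03. Mos, the kinase of the metaphase arrest, was above background in siXist clone 2 (-5.30) and IVF embryo 1 (-5.48), with IVF embryo 4 at -5.67 and not above background, and the other arrays between -8.89 and -6.41.

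Among chromatin and nuclear proteins, Npm2, the oocyte nucleoplasmin, was at -0.43, -1.35, -2.50 and -1.41 in siXist clones, -0.21, 0.28, 0.28 and -0.95 in siCont clones and -1.41, -2.53, -1.80 and -1.22 in IVF embryos. All siCont clones were above all IVF embryos, and siXist clone 1 alone of its class lay within the siCont range. Its differences were 1.59 ± 0.51 (adjusted p = 0.231) for siCont minus IVF and -1.27 ± 0.51 (adjusted p = 0.327) for siXist minus siCont. H1foo, the linker histone of the oocyte (H1f8 in RefSeq), was at 1.14, 0.89, -1.20 and -0.69 in siXist clones, 0.36, -0.52, -0.60 and 1.00 in siCont clones and 0.10, -1.07, -1.48 and 0.30 in IVF embryos. Each class held high and low embryos of about the same levels, and siXist minus siCont gave -0.03 ± 0.67 (adjusted p = 0.987).

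Genes that store, translate or clear maternal RNA differed in direction. Cpeb1, which controls cytoplasmic polyadenylation, was at -0.61, 0.99, 0.32 and 0.21 in siXist clones, 0.56, 1.52, 1.44 and 2.92 in siCont clones and 0.26, 1.45, 0.84 and -0.16 in IVF embryos. The siCont clones had the highest mean (1.61), with the classes overlapping, and the differences were -1.38 ± 0.58 (adjusted p = 0.338) for siXist minus siCont and 1.01 ± 0.58 (adjusted p = 0.471) for siCont minus IVF. The siCont minus IVF value of Cpeb1 turned to -0.08 in the authors' deposited table. Zar1, which binds stored RNA, was at -3.17, -3.21, -4.59 and -4.31 in siXist clones, -2.47, -5.79, -4.39 and -4.57 in siCont clones and -4.34, -3.34, -2.94 and -4.59 in IVF embryos. Its siCont clones spread over more than 3 log2 units around the range of the other embryos. Btg4, the adaptor that brings the deadenylase to maternal RNA, was at -4.33, -3.65, -1.19 and -2.51 in siXist clones, -1.36, -1.38, -7.07 and -2.76 in siCont clones and -3.36, -2.64, -1.41 and -3.50 in IVF embryos. It was above background on every array but siCont clone 3. Oas1d, an oocyte member of the oligoadenylate synthetase family, was at 0.10, 1.17, -0.19 and -0.16 in siXist clones, 0.27, 0.01, 0.50 and 1.60 in siCont clones and 1.47, 2.30, 2.68 and 2.24 in IVF embryos. Every siXist clone and 3 of 4 siCont clones were below every IVF embryo. The siXist minus IVF difference of Oas1d was -1.94 ± 0.47 (adjusted p = 0.12), 3.84-fold lower in siXist clones, and the siCont minus IVF difference was -1.58 ± 0.47 (adjusted p = 0.209), 2.99-fold lower. Over 22 alternatives the adjusted p of the first ran from 0.0993 to 0.427 and its value from -2.25 to -1.64, so it was lower throughout and called in none.

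Of the remaining members, Oog1, a leucine-rich protein of oocytes and cleavage embryos, was at 3.54, 2.11, 2.67 and 3.17 in siXist clones, 3.75, 3.47, 4.64 and 3.03 in siCont clones and 2.41, 1.87, 2.29 and 1.74 in IVF embryos. All siCont clones were above all IVF embryos, by 1.64 ± 0.42 (adjusted p = 0.145) or 3.12-fold, and siXist clones overlapped both classes, with clone 2 within the IVF range. Rfpl4, a RING finger protein of the oocyte, was at -2.28, -2.34, -2.42 and -4.20 in siXist clones, -1.33, -1.48, -7.69 and -3.04 in siCont clones and -7.35, -2.02, -4.95 and -5.73 in IVF embryos. Above background were 4 of 4 siXist, 3 of 4 siCont and 2 of 4 IVF arrays, and the differences were 2.20 ± 1.41 (adjusted p = 0.511) for siXist minus IVF and 1.63 ± 1.41 (adjusted p = 0.649) for siCont minus IVF. Uchl1, a deubiquitinase, was at -1.30, -3.19, -0.39 and -0.84 in siXist clones, -2.93, -0.58, -1.57 and -3.90 in siCont clones and -2.56, -2.78, -0.97 and -2.80 in IVF embryos. Its classes overlapped widely. Bcl2l10, a Bcl2 relative abundant in oocytes, was at 0.73, 1.62, 0.65 and 0.61 in siXist clones, 0.22, 2.26, -6.16 and -1.52 in siCont clones and -0.48, 0.34, -0.99 and -0.23 in IVF embryos. The siXist clones lay above all IVF embryos by 1.24 ± 1.42 (adjusted p = 0.711), and above siCont clones by a mean of 2.20 ± 1.42 (adjusted p = 0.49), a value that was 0.58 (adjusted p = 0.836) without siCont clone 3, in which the probe was not above background.

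Between siXist and siCont clones, which differ in the injected siRNA, 0 of 29 tested members were called by limma, against 0.0105% of all 19047 genes. An unadjusted limma p under 0.05 was found for 3 of 29 members (Gdf9, Npm2 and Cpeb1, all lower), against 2648 of 19047 genes (13.9%), 1812 of them lower. The classes did not overlap for 3 members (Gdf9, Nlrp2 and Nlrp14, all lower in siXist clones), or 10.3% of those tested, against 8.04% of all genes and 6.43% for non-overlap in that direction. The median difference of the tested members was -0.03 and that of all genes -0.21. In the authors' deposited table the medians were 1.11 and 0.92, and there the differences of Gdf9, Npm2 and Cpeb1 were -0.016, -0.14 and -0.25.

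Between siCont clones and IVF embryos, 0 of 29 members were called against 0.415% of all genes (0.226% called higher). An unadjusted limma p under 0.05 was found for 8 of 29 members, 6 higher and 2 lower. Over all genes it was found for 2584 of 19047 (13.6%), 1302 higher and 1282 lower. Classes did not overlap for 6 members (20.7%) against 10.3% of all genes, and all 6 (Zp2, Tle6, Gdf9, Oosp1, Npm2 and Oog1) were higher in siCont clones. Non-overlap held for 5.53% of all genes in that direction and for 4.79% in the other. The median difference was 0.46 for the tested members and -0.04 for all genes. In the authors' deposited table the members' median was -0.63 and that of all genes -1.13, so its sign turned with the scaling, and in both scalings it lay above the median of all genes. In that table the differences of Zp2, Tle6, Oosp1, Npm2 and Oog1 were 0.73, 0.26, 0.38, 0.49 and 0.55, each smaller than as reported. Gdf9, whose difference as reported was 0.94 and so under the size of 1 set for naming, has no value given there. Whether Gdf9 stayed higher in siCont clones in that table is therefore not shown.

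Between siXist clones and IVF embryos, Oosp1 was the 1 member called of 29, against 0.578% of all genes. Classes did not overlap for 7 members (24.1%) against 13.1% of all genes. Of these Tle6, Oosp1, Gpr3 and Bcl2l10 were higher and Nlrp14, Lhx8 and Oas1d lower in siXist clones, against 3.48% and 9.58% of all genes in those directions. Gpr3 passed the filter through siXist clones alone and was above background on no IVF array. Its place among the higher members was therefore in part set by the filter. The median difference was -0.02 for the tested members and -0.23 for all genes. Both comparisons with IVF embryos use the same 4 IVF arrays. For Tle6 and Oosp1 each clone class was above the IVF range, and for Zp2, Gdf9, Npm2 and Oog1 siCont clones alone. Differences of at least 1 in log2 were found for 10 members in siXist minus siCont, 12 in siCont minus IVF and 10 in siXist minus IVF (34.5%, 41.4% and 34.5% of those tested), against 29.7%, 30.7% and 30.4% of all genes.

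**Figure D4:**
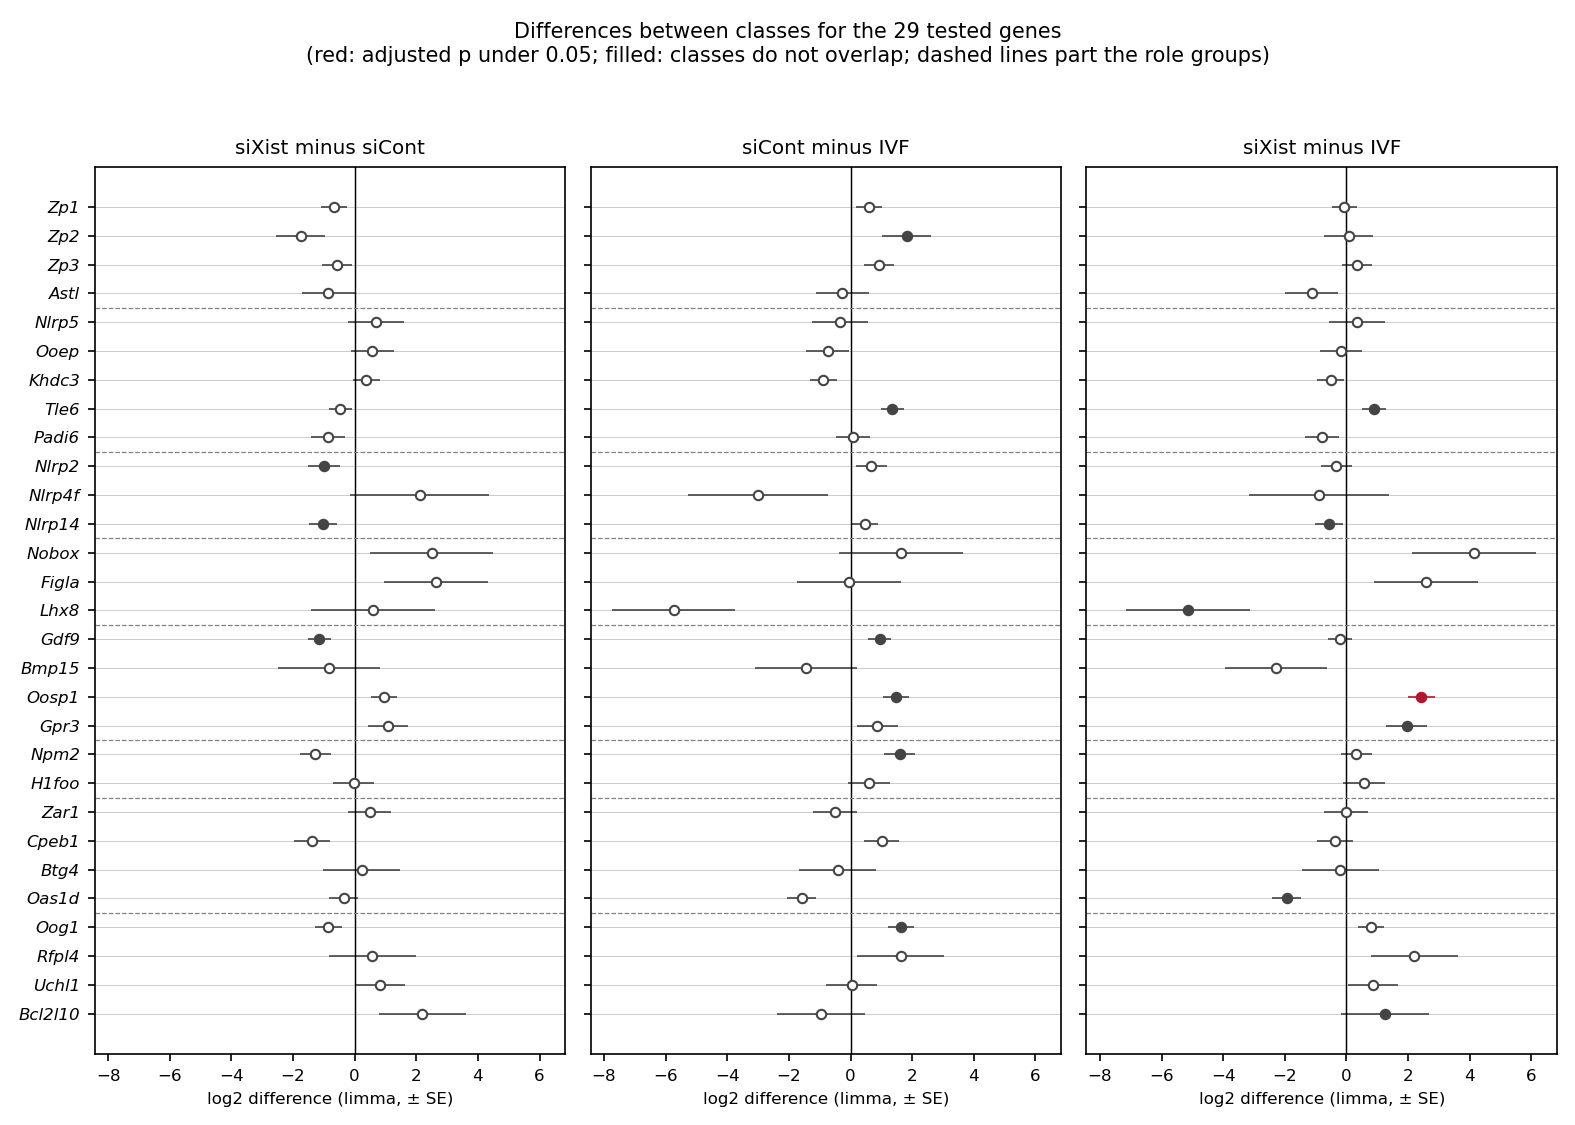
Differences in log2 (limma, with SE) for the 29 tested genes in siXist minus siCont, siCont minus IVF and siXist minus IVF, ordered by role group. Filled points are genes whose classes do not overlap (3, 6 and 7 genes), and the 1 red point is Oosp1 in siXist minus IVF, the only difference with an adjusted p under 0.05.

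Spread within classes set how much of this could be resolved. The pooled SD within a class ran from 0.45 for Gdf9 and Tle6 to 3.39 for Nlrp4f, with a median of 0.94 over the tested members against 0.79 over all genes. The even members, with an SD under 0.7, were Gdf9, Tle6, Nlrp14, Oosp1, Oog1, Khdc3, Oas1d, Zp1, Zp3 and Npm2. The uneven ones, with an SD above 2, were Bcl2l10, Rfpl4, Bmp15, Figla, Nobox, Lhx8 and Nlrp4f, and each was not well above background on at least 1 array.

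Other genes of the same biology, from lists of names, gave no call in any of the 3 comparisons. Of 35 further oocyte genes 21 were tested. Their median differences were -0.19 (siXist minus siCont), 0.67 (siCont minus IVF) and 0.18 (siXist minus IVF), with 8, 17 and 13 of 21 above 0. Of 20 widely expressed maternal-effect genes 19 were tested, with medians of -0.27, -0.16 and -0.51 and with 6, 5 and 5 above 0. Of 19 genes of maternal RNA decay 18 were tested, with medians of -0.65, 0.14 and -0.39 and with 5, 11 and 7 above 0. Over all genes tested the medians were -0.21, -0.04 and -0.23, with 7583, 9172 and 7287 of 19047 above 0. Counts below the middle in siXist minus siCont and siXist minus IVF are to be read against that. The lowest adjusted p over the 3 lists was 0.0585, in siXist minus IVF.

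Markers of other cells were examined because cumulus cells surround the oocyte and Sertoli cells gave the nuclei. Of 13 cumulus markers, Inha was above background on 0 arrays and 3 were so on all. Their summed linear signal, in multiples of the 75th percentile, ran from 3.45 to 7.47 in siXist clones, 4.17 to 8.96 in siCont clones and 2.46 to 4.63 in IVF embryos. That sum was carried by Amhr2 (mean log2 of 2.09 in siXist clones, 2.24 in siCont clones and 1.49 in IVF embryos), since the other 12 markers had class means of -3.39 or lower. Single cumulus markers differed in direction. Ptx3 was above background on 0 of 4 siXist, 4 of 4 siCont and 1 of 4 IVF arrays, and Star on 3, 1 and 2, Tnfaip6 on 2, 1 and 0 and Cd44 on 2, 1 and 0 in the same order of classes. Of 11 Sertoli markers, Amh was above background on 0 arrays and 5 were so on all, with sums from 1.78 to 5.29 in siXist clones, 2.71 to 6.22 in siCont clones and 3.41 to 4.96 in IVF embryos. Single Sertoli markers also differed in direction. Class means (siXist, siCont, IVF) were -1.50, -1.48 and -2.91 for Clu and -5.38, -2.31 and 0.12 for Sox9. Cldn11 was above background on 4, 1 and 0 arrays in that order. Of 8 Sertoli markers tested, 5 were above 0 in siCont minus IVF and 2 in siXist minus IVF. The part of other cells in the members' values was not tested.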

How the data were processed

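Single-channel (Cy3) arrays of 12 single morulae were read from the scanner files, after TRIzol extraction and a pair of amplification rounds, per the labels' protocols. The authors deposited processed intensity per spot from Agilent Feature Extraction 10.5.1.1, per the file headers. Outlier spots were left out, and log2 intensity minus each array's 75th percentile was computed. Probes well above background on at least 3 of 4 arrays of a class were kept, and the brightest kept probe stood for a gene. The fit used limma 3.58.1 (R 4.3.3) on 3 class means with a sex term within IVF, and Benjamini-Hochberg adjustment at 0.05 over 19047 genes. The fit was tested on simulated data. Tables and figures used Python 3.11.15 and matplotlib 3.10.9.

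Of 41174 probes, 26888 (65.3%) were named, by matching accessions to RefSeq (GRCm38.p6). A second deposited table holds log2 values that the authors centred per probe. Its scale and centring were found by comparison with the scanner values, its column medians were 0.01, 0.54, -0.18 and -0.22 for siXist clones, -0.05, -0.72, -1.62 and -0.12 for siCont clones and 0.56, -0.0069, 0.75 and 0.32 for IVF embryos, its constant per array is unknown, and it served as an alternative. The members and gene lists were chosen with earlier results of these data known. By the rule for named genes, embryo values are given for members above background on at least 6 of 12 arrays, and differences where called or at least 1 in log2. Values of Nobox and Gpr3, and smaller differences where classes did not overlap or for contrast between comparisons, were added after they were seen. Alternatives were the background correction and scaling, the deposited table, the filter, a floor, the choice of probe, the classes in the fit, a replicate block and each embryo left out.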

Additional observations from a re-analysis of the deposited data

Results flagged for a closer look

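In 7 of 86 groups of 4 embryos, 1 embryo stood far from the other 3 of its class by Dixon's ratio, where chance gives about 1 in 20. Padi6 was at 2.26 in IVF embryo 4, with the others between 0.39 and 0.70. Nlrp2 was at -1.76 in the same embryo, with the others between -3.23 and -3.13. Uchl1 was at -0.97 in IVF embryo 3, with the others between -2.80 and -2.56. Rfpl4 was at -4.20 in siXist clone 4, against -2.42 to -2.28 in its class. Bcl2l10 was at 1.62 in siXist clone 2, against 0.61 to 0.73. Nobox was at -0.90 in siCont clone 2 and Lhx8 at 0.50 in siCont clone 3, while the other siCont clones lay between -8.21 and -7.78 for Nobox and between -8.36 and -7.71 for Lhx8, not well above background. The Lhx8 values are those of its brighter probe. On its other probe siCont clone 3 was at -5.69 and siCont clone 2 at -2.93.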

How the results depend on the processing

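Of 699 recomputed member differences, 679 kept their direction and their side of the threshold, 15 (all Oosp1, siXist minus IVF) lost the call, 1 gained one (Gpr3, siXist minus IVF, adjusted p = 0.0345 without siCont clone 1) and 4 changed sign. The sign changes were Nlrp14 in siXist minus siCont (0.19) and Cpeb1 in siCont minus IVF (-0.085) in the authors' deposited table, Gpr3 in siXist minus siCont with a floor (-0.031), and Nobox in siCont minus IVF without siCont clone 2 (-0.15, against 2.28 without siCont clone 4). The count of members called in siXist minus IVF, 1 as reported, was 0 in the deposited table, with the stricter filter (at least 6 arrays above background), with the 8 arrays compared alone and with the replicate block, and 0 to 1 with an embryo left out. It was 1 without siCont clone 3 (Oosp1) and without siCont clone 1 (Gpr3 in place of Oosp1).

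Genes called in siXist minus siCont, 2 as reported, numbered 0 with normexp and quantile scaling, 4 with quantile scaling, 19 in the deposited table, 5 with every probe, 12 with the classes compared alone and 8 to 56 with an embryo left out. In siCont minus IVF, 79 as reported, they numbered 50 with the stricter filter and 33 to 106 with an embryo left out. In siXist minus IVF, 110 as reported, they numbered 38 in the deposited table, 52 with the stricter filter and 34 to 127 with an embryo left out. The members' median in siXist minus siCont was 1.11 in the deposited table (all genes 0.92), -0.36 with the stricter filter, -0.36 with the mean of probes and -0.47 to 0.21 with an embryo left out. In siCont minus IVF it was -0.63 in the deposited table (all genes -1.13), 0.068 with the stricter filter and 0.18 to 0.74 with an embryo left out. In siXist minus IVF it was -0.15 to 0.30 with an embryo left out. The cause of these shifts was not tested. Nobox and Gpr3 had no value under the stricter filter.

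With the replicate block, 0, 12 and 13 genes were called in siXist minus siCont, siCont minus IVF and siXist minus IVF, and the adjusted p of Oosp1 in siXist minus IVF was 0.0900. Same-numbered embryos had correlations of their deviations from -0.153 to 0.0642, so the numbers did not pair the embryos. The slide as a random block was not run, because each slide holds exactly 1 class. Dim probes limit Nobox, Gpr3, Mos and Zbed3 most, since under 6 of 12 arrays were above background.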
